A study of Mus musculus with 100 samples.

Results

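Bone marrow-derived macrophages (BMDMs) that lack the nuclear receptor corepressor NCoR were stimulated with Kdo2 lipid A (KLA), and histone H3 lysine 27 acetylation (H3K27ac) was mapped by ChIP-seq. The members of the response described here are the 18504 open chromatin regions, of 24867 in the table of wild type (WT) and NCoR knockout (NKO) libraries, that held 16 or more tags in at least 1 library. Of these, 508 gained and 1472 lost H3K27ac with KLA in NKO cells. The comparison rests on 2 NKO KLA and 2 NKO vehicle (Veh) libraries of the 100 samples in the series.

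Both genotypes were NCoR flox/flox mice on a C57Bl6 background, 8 to 12 weeks old by the study's methods. NKO mice carried LysMCre in addition, a recombinase driven by the lysozyme M gene and active in myeloid cells, and WT mice carried none. Cells of each genotype received Veh or KLA for 6 h, and the protocol speaks of biological replicates without stating how many mice each came from. H3K27ac libraries held 13.6 and 17.2 M tags in NKO Veh, 18.8 and 14.4 M in NKO KLA, and 14.5 to 19.6 M in the 4 WT libraries. Excision of Ncor1 cannot be read from an acetylation mark. The Ncor1 promoter region held 58.2 and 70.2 tags per 10 M in NKO Veh and 54.7 and 62.5 in NKO KLA, which checks nothing about the deleted exons. Of the macrophage markers, 7 of 10 had a promoter region in the table, at a median of 51.8 tags per 10 M in NKO Veh and 44.0 in NKO KLA. A promoter region was present for 0 of 5 B cell, 0 of 5 fibroblast, 1 of 6 T cell, 1 of 5 neutrophil and 1 of 4 dendritic cell markers.

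KLA is a lipid A of bacterial lipopolysaccharide and an agonist of Toll-like receptor TLR4, which acts through MyD88 and TRIF to activate NF-kB, AP-1 and interferon regulatory factors. H3K27ac marks active promoters and enhancers and is placed by p300 and CBP. NCoR is classically a corepressor that carries the histone deacetylase HDAC3, and the study asked what it does when TLR4 switches inflammatory genes on.

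Sequences of some regions with strong responses are shown first. The letters at their centres are what the factors described further on could read. The 6 windows below are 3 gained and 3 lost regions from among those with the lowest p-values. All overlapped no annotated exon and were distal, over 2 kb away from the nearest transcription start site (TSS, with negative distances upstream). A lost region near Snx24 had a lower p-value than the one at Dock1 and is not printed. Each window gives 200 bp around the region's centre on the forward strand of mm10, with matches to the 8 motifs searched in capitals. The first 3 gained H3K27ac in NKO cells and the last 3 lost it.
Ehd1, intergenic, -3027 bp from the TSS, chr19:6273769-6273968: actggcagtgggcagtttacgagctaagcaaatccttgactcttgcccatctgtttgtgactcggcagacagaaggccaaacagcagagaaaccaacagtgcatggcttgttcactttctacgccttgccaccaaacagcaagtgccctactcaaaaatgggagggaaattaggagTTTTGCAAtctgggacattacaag
Akna, intergenic, -5459 bp from the TSS, chr4:63408804-63409003: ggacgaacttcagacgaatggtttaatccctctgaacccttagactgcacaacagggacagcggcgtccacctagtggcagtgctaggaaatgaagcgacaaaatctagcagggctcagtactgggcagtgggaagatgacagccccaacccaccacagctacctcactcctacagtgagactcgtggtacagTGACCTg
Zfp947, intergenic, 84780 bp from the TSS, chr17:22081097-22081296: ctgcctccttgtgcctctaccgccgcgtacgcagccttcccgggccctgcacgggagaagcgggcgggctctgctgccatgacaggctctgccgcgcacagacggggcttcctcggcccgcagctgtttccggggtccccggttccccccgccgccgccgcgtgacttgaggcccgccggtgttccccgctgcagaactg
Gas6, intergenic, -9635 bp from the TSS, chr8:13504070-13504269: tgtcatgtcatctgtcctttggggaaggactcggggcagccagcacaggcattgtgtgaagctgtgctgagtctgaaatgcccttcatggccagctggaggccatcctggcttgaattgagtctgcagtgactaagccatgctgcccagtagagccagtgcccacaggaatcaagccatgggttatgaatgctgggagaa
6820426E19Rik, intergenic, -64051 bp from the TSS, chr6:117431084-117431283: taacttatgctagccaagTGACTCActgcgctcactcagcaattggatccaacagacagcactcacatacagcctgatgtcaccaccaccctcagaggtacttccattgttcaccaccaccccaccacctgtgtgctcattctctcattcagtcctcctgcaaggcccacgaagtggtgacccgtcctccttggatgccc
Dock1, intergenic, -114364 bp from the TSS, chr7:134556223-134556422: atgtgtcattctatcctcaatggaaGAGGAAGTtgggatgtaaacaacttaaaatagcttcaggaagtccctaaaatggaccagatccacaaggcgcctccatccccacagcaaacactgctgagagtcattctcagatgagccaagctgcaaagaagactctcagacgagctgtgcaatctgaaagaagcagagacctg
The capitals mark 1 C/EBP match (TTGCNNAA) at Ehd1, 1 nuclear receptor half-site (AGGTCA) at Akna, 1 AP-1 match (TGANTCA) at 6820426E19Rik and 1 PU.1 match (GAGGAAGT) at Dock1. At Ehd1 and Akna the match is on the reverse strand, so the capitals show the reverse complement of the motif letters. The Zfp947 and Gas6 windows held none of the searched letters. No window held more than 1 match, so no matches overlap, and a match describes letters, not a bound site.

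Counts were scaled by the library totals and fitted with edgeR over all 8 libraries of the table, and a region was called when its Benjamini-Hochberg adjusted p-value was under 0.05 and its change more than 2-fold. Gained regions were 2.75% and lost regions 7.96% of those tested. The gained regions had a median log2 fold change of 1.54 and the lost regions of -1.55, and 152 gained and 344 lost regions changed by more than 2 on the log2 scale. In all 508 gained regions and in 1471 of the 1472 lost regions the 2 KLA values lay on one side of the 2 Veh values. They lay so in 3451 of all tested regions upward and in 6689 downward.

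The split between gained and lost moved with the scaling. NKO Veh libraries had 7.18% and 6.55% of their tags in the listed regions, against 6.20% and 6.25% in NKO KLA, and the median log2 fold change of all tested regions was -0.20. With TMM scaling, which centres the regions and moved this median to -0.00311, 794 regions were gained and 984 lost. All 508 gained regions stayed called in that fit, as did 984 of the 1472 lost ones. The count of called regions fell from 1980 to 1208 without NKO Veh replicate 1 and to 1247 without NKO KLA replicate 2, and without the latter 329 regions were gained and 918 lost. What part the share of tags in regions has in the split was not tested. Just inside the tag limit, 392 regions with a highest count of 16 held a median of 5.76 tags per 10 M in NKO Veh and 4.89 in NKO KLA, and 402 regions just outside it held 5.34 and 4.33. Of the called regions, 12 gained and 38 lost ones reached 16 tags in no library outside the higher NKO group.

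Of the gained regions, those with the lowest p-values are given first. The region at -3027 bp from Ehd1, which encodes an ATPase of endocytic recycling, held 2.95 and 3.48 tags per 10 M in NKO Veh and 96.1 and 144 in NKO KLA. From near absence it became a strong region with KLA (log2 5.17 ± 0.36, SE, with an edgeR adjusted p of 4.92e-15). A region at -9610 bp from Mir155hg, the host gene of miR-155, rose from 7.37 and 10.4 to 91.9 and 105 tags per 10 M. The change was 3.43 ± 0.30 on the log2 scale (SE), with an adjusted p of 7.51e-12 in edgeR. The region near Akna, printed above, rose from 17.0 and 13.9 to 139 and 103 tags per 10 M. At all of these the KLA libraries stood far above the Veh libraries without overlap.

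Promoters were among the top gained regions too. At the promoter of Irf1, an interferon-inducible transcription factor, NKO Veh held 51.6 and 42.9 tags per 10 M and NKO KLA 193 and 169 (log2 1.95 ± 0.21, SE, adjusted p of 2.59e-09 in edgeR). Near the start of Nfkb2, which encodes the p100 precursor of p52, the values were 22.9 and 19.2 against 92.9 and 118 tags per 10 M. The promoter of Zbp1, a sensor of nucleic acids, went from 42.8 and 40.0 to 126 and 156 tags per 10 M. The remaining top regions lay near Zfp947, Mir5131, Acsl1 (a fatty acyl-CoA synthetase), Sec23ip, 4930529L06Rik and Mir147. Their log2 fold changes lay between 1.60 at Sec23ip and 2.95 at 4930529L06Rik.

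**Figure D1:**
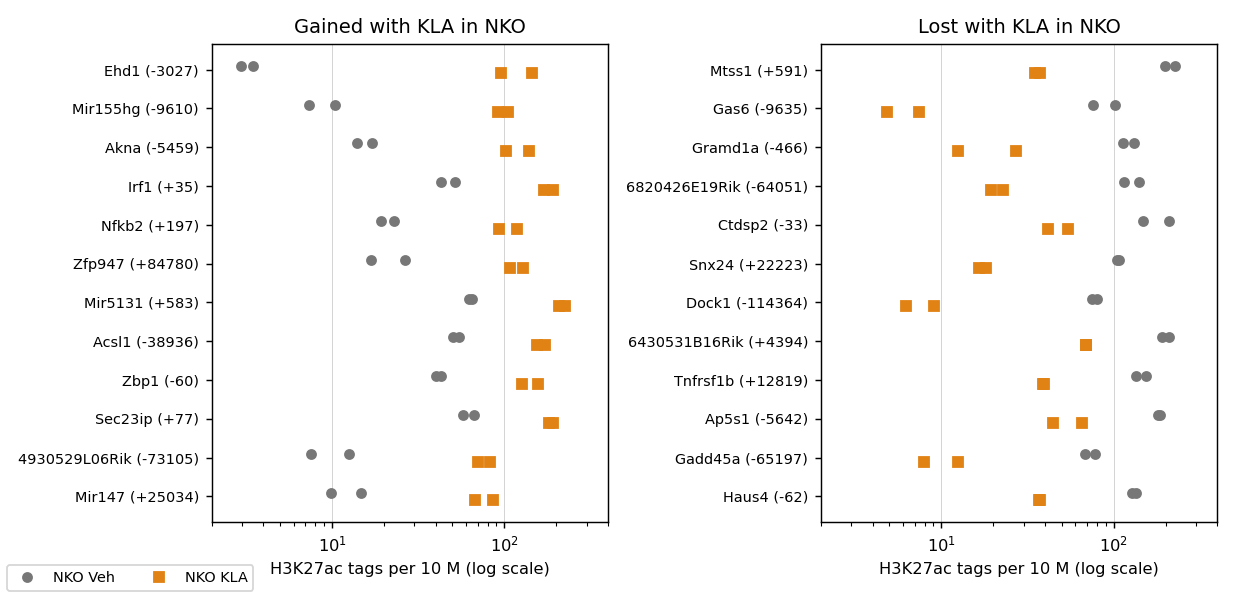
H3K27ac in tags per 10 M (log axis) in each NKO library at the 12 gained and 12 lost regions with the lowest p-values, circles for Veh and squares for KLA, with the distance to the TSS in bp in parentheses. At each of the 24 regions the 2 KLA libraries stand apart from the 2 Veh libraries, from 2.95 and 3.48 to 96.1 and 144 at Ehd1 and from 227 and 200 to 35 and 37.5 at Mtss1.

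Lost regions held a median of 24.2 tags per 10 M over the libraries, against 25.9 at gained and 19.9 at all tested regions, and those with the lowest p-values were strong regions in Veh. In an intron of Mtss1, 591 bp from the TSS, which encodes a membrane-bending actin regulator, H3K27ac went from 227 and 200 tags per 10 M in NKO Veh to 35 and 37.5 in NKO KLA (log2 -2.56 ± 0.20, SE, adjusted p of 1.36e-13 in edgeR). The region upstream of Gas6, a ligand of the TAM receptors that bind apoptotic cells, held 102 and 75.5 against 7.43 and 4.86. The change there, -3.79 ± 0.34 on the log2 scale (SE, adjusted p of 1.38e-11 in edgeR), was the steepest of the 12 top lost regions. The region upstream of Dock1, an activator of Rac in engulfment, held 75.2 and 79.5 against 9.03 and 6.25. At Gas6 and Dock1 both KLA libraries held under 10 tags per 10 M, and no group overlapped its control.

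Of the other top lost regions, 1 lay at -65197 bp from Gadd45a, a stress-response gene, with 68.6 and 78.4 tags per 10 M in Veh and 7.96 and 12.5 in KLA. An intronic region of Tnfrsf1b, which encodes a receptor of TNF, fell from 154 and 135 to 39.3 and 38.9. The promoter of Gramd1a, a sterol transporter, fell from 132 and 113 to 27.1 and 12.5. Regions near 6820426E19Rik, Ctdsp2, Snx24, 6430531B16Rik, Ap5s1 and Haus4 completed the 12, with log2 fold changes from -2.62 at Snx24 to -1.52 at 6430531B16Rik. In each of these the KLA libraries lay below both Veh libraries.

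Several genes had more than 1 called region, and the regions of a gene are neighbours rather than replicates. Socs3, an inhibitor of cytokine receptor signalling, had 4 of 8 regions gained, and the kinase gene Mapkapk2 4 of 10. Rin3, an exchange factor of Rab5, had 4 of 5 gained, with log2 fold changes from 0.18 to 2.08. Near 4930529L06Rik, on the same chromosome as Mir155hg, 4 of 8 regions were gained and 1 was lost. Acsl1 had 3 of 5 gained and 1 lost. On the other side, Irf2bp2, a transcriptional cofactor that binds IRF2, had 8 of 15 regions lost and 0 gained, with a median log2 fold change of -1.14. Xylt1 had 6 of 9 lost, the transcription factor gene Foxp1 5 of 10 lost and 1 gained, Gyg 5 of 6 lost and Cd300a 4 of 5 lost. Gained regions lay nearest to 421 genes and lost regions to 1205, and 37 genes had both.

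Gained and lost regions differed in where they lay. Of the gained regions 28.3% were at promoters, against 22.7% of the lost and 41.0% of all tested regions. Regions more than 2 kb from a TSS were 55.1% of the gained, 66.0% of the lost and 46.5% of the tested. Within the 8613 distal regions 280 were gained and 971 lost, and the median log2 fold change was -0.36. Within the 9884 proximal regions 228 were gained and 501 lost, with a median of -0.11. With TMM scaling the distal median was -0.16 and the proximal median 0.093, so the direction of the proximal median depends on the scaling while the distal one stayed negative under both. Median region lengths were 302 bp for gained, 301 bp for lost and 300 bp for all regions.

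Genes were then read through their strongest region, the one with the most H3K27ac over the 8 libraries, in 13 lists of known function. Across all 9826 genes with a tested region, the strongest region was gained at 2.44% and lost at 7.42%, and the median log2 fold change was -0.17. Interferon-stimulated genes had the most gains, with 9 of 22 gained, 0 lost and a list median of 0.87. The Mx2 promoter, of an antiviral GTPase, went from 52.4 and 56.9 to 156 and 176 tags per 10 M (log2 1.60 ± 0.20, SE, edgeR adjusted p = 4.83e-08). The Gbp3 promoter, of a guanylate-binding protein, went from 11.8 and 47.6 to 115 and 103, a pair of Veh libraries that stood apart from each other but both below KLA. Not called were Slfn2, with a log2 fold change of -0.82, and Irf9, with 0.76 and an edgeR adjusted p of 0.0547. In total 14 of the 40 regions nearest to these genes were gained and 0 lost.

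Cytokine genes had 5 of 15 strongest regions gained and 1 lost, with a median log2 fold change of 0.45. Il6 went from 7.37 and 5.80 to 20.7 and 56.9 tags per 10 M (log2 2.54 ± 0.49, SE, edgeR adjusted p = 0.000171), and lost its call without NKO KLA replicate 2 (log2 1.65, adjusted p = 0.0691). Il23a, a subunit of interleukin 23, went from 4.42 and 3.48 to 30.8 and 16.7. The Il27 region went from 16.2 and 8.71 to 49.9 and 27.1, and was not called without NKO KLA replicate 1 (log2 1.14, adjusted p = 0.195) or without NKO Veh replicate 2 (1.26, adjusted p = 0.109). The strongest region of Il12a, also a cytokine subunit gene, lay -57836 bp from its TSS. It held 0.737 and 4.64 in Veh and 15.9 and 11.1 in KLA (log2 2.23 ± 0.70, SE, edgeR adjusted p = 0.0231). It was not called without NKO KLA replicate 1 (1.94) or NKO Veh replicate 1 (1.54), nor with the 4 NKO libraries fitted alone (2.24, adjusted p = 0.0753). The Il10 region, of an anti-inflammatory cytokine, went the other way, from 53.8 and 44.1 to 19.1 and 29.2 (log2 -1.03 ± 0.36, SE, edgeR adjusted p = 0.0423). It passed neither with TMM (-0.83, adjusted p = 0.109) nor without any single NKO library (adjusted p from 0.0528 to 0.300). Tnf (40.6 and 38.3 against 56.3 and 51.4) and Il15 were not called.

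The chemokine list had 0 of 12 strongest regions gained and 0 lost under the edgeR fit, with a median log2 fold change of 0.23, which turned to -0.032 without NKO Veh replicate 2. Ccl3 held 89.2 and 45.9 tags per 10 M in NKO Veh and 78.6 and 88.2 in NKO KLA, which overlap. The region at -28421 bp from Ccl2, also a chemoattractant of monocytes, held 149 and 127 against 116 and 100. Of all 23 regions nearest to genes of this list 2 were gained, near Cxcl11 and Ccrl2, both named after their values were seen. With TMM scaling 1 strongest region of this list was gained.

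Among NF-kB subunits and their feedback inhibitors, 1 of 16 strongest regions was gained and 1 lost, but 14 of their 59 regions were gained and 5 lost, with gains at 8 genes. With TMM 4 strongest regions were gained and 1 lost, the gains being at Nfkb2, Nfkbia, Nfkbib and Nfkbie. The list median was 0.22, and -0.027 among distal regions. Nfkbie, an inhibitor of NF-kB, went from 42.0 and 45.9 to 108 and 113 tags per 10 M (log2 1.33 ± 0.23, SE, edgeR adjusted p = 4.65e-05). The Traf1 region fell from 38.3 and 33.7 to 12.2 and 14.6, and was not called without NKO KLA replicate 1 (log2 -1.30, adjusted p = 0.0961) or NKO Veh replicate 1 (-1.33, adjusted p = 0.0650). Relb, with 131 and 166 against 258 and 256, had a log2 fold change of 0.79, which is under the 2-fold limit, and Birc3 one of 0.22. The strong Nfkb2 region at -234 bp from the TSS had a log2 fold change of 0.997 ± 0.147 (SE) and just missed that limit, which it passed with TMM, while the weaker neighbouring region described above passed under both scalings.

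Receptors, adaptors and inhibitors of Toll-like receptor signalling had 5 of 18 strongest regions gained, 0 lost and a median of 0.41. Irak3, an inhibitory kinase homologue, went from 44.2 and 81.3 to 174 and 183 tags per 10 M (log2 1.48 ± 0.19, SE, edgeR adjusted p = 1.63e-07). Socs1 went from 87.0 and 82.4 to 194 and 204, and Socs3 from 41.3 and 40.6 to 106 and 107. Tlr2 and the adaptor gene Myd88 were also gained, with log2 fold changes of 1.46 and 1.05. Tbk1 and Tlr9 were not called, at 0.67 and -0.045. Inflammatory enzymes and transporters had 3 of 14 gained and 0 lost, with a median of 0.51 that was -0.082 among distal regions. Gch1, the first enzyme of tetrahydrobiopterin synthesis, went from 57.5 and 59.2 to 129 and 135. The scavenger receptor gene Marco, in the same list, went from 17.7 and 23.8 to 54.7 and 54.2. The Ass1 region, of the citrulline cycle, was gained (log2 1.18) but not without NKO KLA replicate 1 (0.67, adjusted p = 0.363) or NKO Veh replicate 1 (0.88, adjusted p = 0.181). Ptges, a prostaglandin E synthase gene, held 92.9 and 95.8 against 128 and 167 and was not called.

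**Figure D2:**
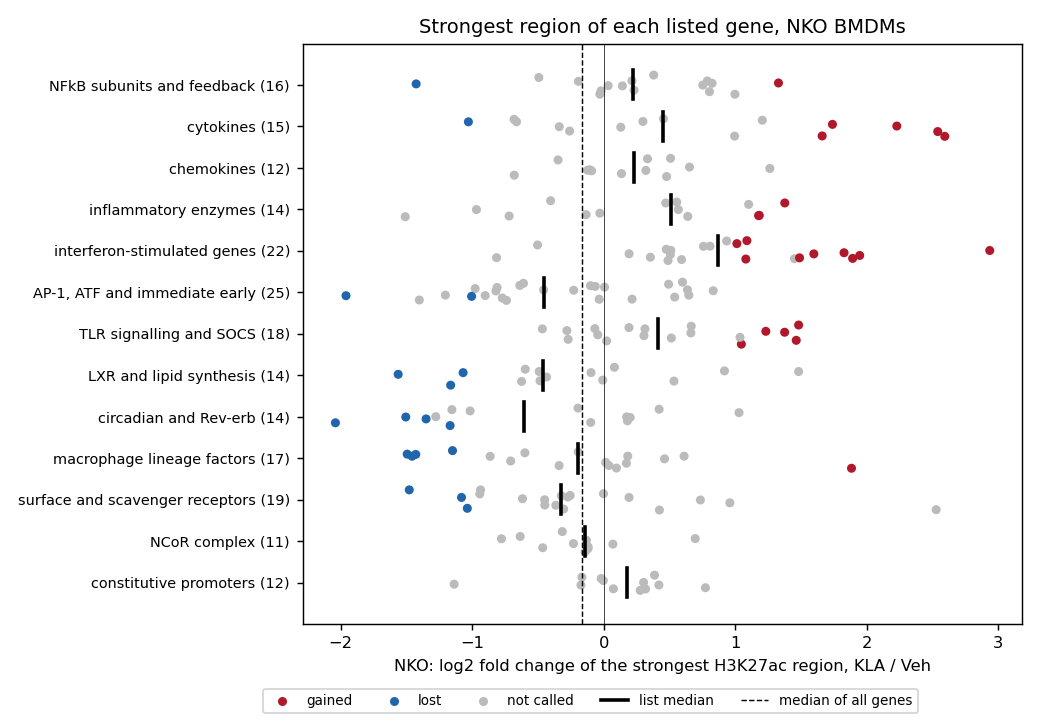
Log2 fold change of H3K27ac (KLA over Veh, NKO) at the strongest region of each listed gene, 1 row per list with the number of genes in parentheses, thick bars for list medians and the dashed line for the median of all genes (-0.17). The interferon-stimulated genes hold 9 gained regions and 0 lost, while the circadian and lipid synthesis lists hold 4 and 3 lost regions and 0 gained, counts that with TMM become 3 and 1 lost and 1 and 2 gained.

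Of the circadian and Rev-erb genes 4 of 14 strongest regions were lost and 0 gained, with a median of -0.61, and with TMM 3 were lost and 1 gained. Tef, a clock output transcription factor, fell from 114 and 103 to 28.1 and 24.3 tags per 10 M (log2 -2.04 ± 0.25, SE, edgeR adjusted p = 4.74e-08). Dbp, a related factor, fell from 33.2 and 33.1 to 9.03 and 14.6, and lost its call without NKO KLA replicate 1 (-1.18, adjusted p = 0.129). Nr1d2, which encodes the heme-binding repressor Rev-erb beta, changed by -1.17, a call lost with TMM (-0.97) and without NKO KLA replicate 1 (-0.91, adjusted p = 0.106). Nr1d1, its paralogue, was also lost (-1.35 ± 0.39, SE, edgeR adjusted p = 0.0137). Clock and Bhlhe40 were not called, at 0.17 and -0.099.

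Among LXR and lipid synthesis genes 3 of 14 strongest regions were lost and 0 gained, with a median of -0.46, and with TMM 1 was lost and 2 were gained. Scd1, a stearoyl-CoA desaturase gene, fell from 78.2 and 56.9 to 24.4 and 20.8 tags per 10 M (log2 -1.56 ± 0.35, SE, edgeR adjusted p = 0.00113). Its paralogue Scd2 fell from 45.0 and 59.2 to 26 and 23.6 (-1.07 ± 0.37, SE, edgeR adjusted p = 0.0434). The call did not hold with TMM (-0.88, adjusted p = 0.106), with the replicate block (-1.05, adjusted p = 0.0538) or without any single NKO library (adjusted p from 0.0680 to 0.260). Nr1h3, which encodes LXR alpha, changed by -1.16 and by -0.96 with TMM, under the 2-fold limit, as it was without NKO KLA replicate 2 (-0.97) or NKO Veh replicate 1 (-0.97). The strongest region of Abca1, a cholesterol exporter, held 73.0 and 64.4 in Veh and 78.0 and 57.6 in KLA, which overlap. One weaker region of Abca1, 37875 bp from the TSS, was gained (log2 1.34, edgeR adjusted p = 0.0219). In WT the strongest Scd1 region held 15.8 and 11.2 in Veh and 7.55 and 8.27 in KLA. That of Scd2 held 9.46 and 6.11, then 6.92 and 16.5, and that of Abca1 20.2 and 32.6, then 20.1 and 13.8. NKO Veh was thus above WT Veh at each. The difference in response between genotypes passed at none (edgeR adjusted p = 0.551 at Scd1, 0.187 at Scd2 and 0.530 at Abca1).

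Of the macrophage lineage factors 4 of 17 strongest regions were lost and 1 gained, and 16 of their 86 regions were lost. Cebpa, which encodes a myeloid bZIP factor, fell from 130 and 117 to 38.8 and 49.3 tags per 10 M (log2 -1.49 ± 0.24, SE, edgeR adjusted p = 8.78e-06). Bach1 and Id2 fell by 1.43 and 1.46 on the log2 scale. The gained member was Mitf, a MiT/TFE factor, from 15.5 and 27.3 to 78.6 and 82.6 (1.88 ± 0.29, SE, edgeR adjusted p = 4.89e-06). Spi1, which encodes PU.1, and Mef2a were not called, at 0.097 and 0.014. The list median was -0.19, and 0.0083 with TMM, and 0.036 among distal regions, so its direction depends on the setting.

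Surface and scavenger receptors had 3 of 19 lost and 0 gained, with a median of -0.32, and with TMM the count was even, at 1 lost and 1 gained. Trem2, a lipid receptor, fell from 108 and 97.5 to 31.3 and 43.1 (log2 -1.48 ± 0.25, SE, edgeR adjusted p = 2.52e-05). Cd300a and Stab1 changed by -1.04 and -1.08. With TMM Cd300a was at -0.83 and Stab1 at -0.88, both under the 2-fold limit. Without NKO KLA replicate 2 the values were -0.96 at Cd300a and -0.83 at Stab1, and without NKO Veh replicate 1 they were -0.87 and -0.89, again under it. The AP-1, ATF and immediate early list had 2 of 25 lost and 0 gained, with a median of -0.46, and with TMM 1 lost and 1 gained. Fosb fell from 64.1 and 76.6 to 27.1 and 7.64 (-1.96 ± 0.33, SE, edgeR adjusted p = 2.39e-05). Egr3 went from 84.8 and 54.6 to 36.1 and 32.6 (edgeR adjusted p = 0.0177). This did not pass with TMM (-0.80), with the replicate block, where it was just under 2-fold, or without NKO KLA replicate 1 (-1.08, adjusted p = 0.0767), NKO KLA replicate 2 (-0.94) or NKO Veh replicate 1 (-0.66). Junb and Ier5 were not called, at -0.065 and 0.60. Genes of the NCoR complex had 0 of 11 strongest regions gained and 0 lost (median -0.14, and 0.052 with TMM, where it turned), and constitutive promoters 0 of 12 each way (median 0.17).

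At the loci that the study singled out, Ptgs2 (cyclooxygenase) held 5.16 and 5.80 tags per 10 M at its promoter in NKO Veh and 10.1 and 13.9 in NKO KLA, low values that did not overlap and did not pass (log2 1.10 ± 0.57, SE, edgeR adjusted p = 0.209). In WT the log2 fold change there was 2.54, and the difference between genotypes was -1.44 (edgeR adjusted p = 0.421). This region was 260 bp long. The study's genome-wide H3K27ac values were taken within 500 bp of factor peaks or in 1000 bp windows, so the counts are not like for like. No region nearest Cp reached the tag limit. The Il12a region described above had a WT log2 fold change of 2.76. An intronic Il12a region, 2163 bp from the TSS, held 0 and 2.32 tags per 10 M in NKO Veh and 10.6 and 11.1 in NKO KLA. It was gained (log2 3.03 ± 1.05, SE, edgeR adjusted p = 0.0430) and had a WT value of 2.10. At 17906 bp the region was gained in WT alone, at 2.72 against 1.33 in NKO. The difference between genotypes passed at none of these (edgeR adjusted p from 0.557 to 0.861).

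The WT cells of the same table share no library with the NKO contrast and ask whether the NKO response was also seen with NCoR present. WT gained 1200 regions (6.49%) and lost 688 (3.72%). With TMM 895 were gained and 959 lost, so which count is larger turns with the scaling. Of the regions gained in NKO, 337 were also gained in WT, which is 66.3% of the NKO list and 28.1% of the WT list. Of those lost in NKO, 387 were also lost in WT, 26.3% of the NKO and 56.3% of the WT list. These overlaps were counted with library totals alone. With TMM the NKO lists also changed in length, to 794 gained and 984 lost, so the shares depend on the scaling. Opposite calls were 0 for gained and 1 for lost regions. The median WT log2 fold change was 1.48 at regions gained in NKO and -0.77 at regions lost in NKO, against 0.13 over all tested regions. The WT value was above 0 at 496 of 508 gained and below 0 at 1286 of 1472 lost regions. Set against the WT median of all tested regions, 491 gained regions lay above it and 1343 lost regions below it.

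Regions called in one genotype alone were mostly of the same sign in the other. The 171 gained in NKO and not called in WT had a WT median of 0.84, and 159 of them were above 0. The 1085 lost in NKO and not in WT had a WT median of -0.52. Of the 863 regions gained in WT and not called in NKO, 712 had an NKO log2 fold change above 0, with a median of 0.51. The 301 lost in WT alone had an NKO median of -0.83. Over all tested regions the median was 0.13 in WT and -0.20 in NKO. The difference between genotypes was therefore tested on its own.

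**Figure D3:**
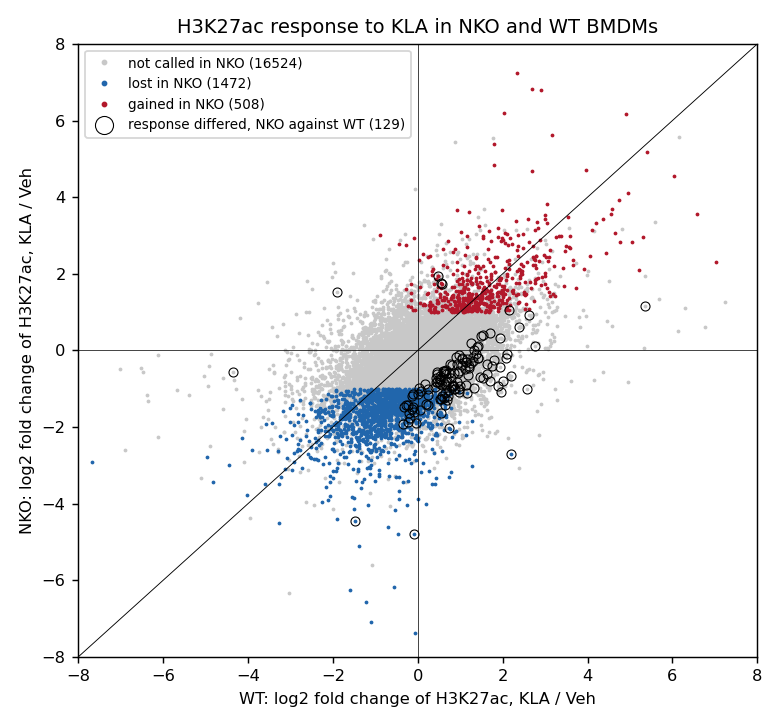
Log2 fold change of H3K27ac with KLA in NKO (vertical) against WT (horizontal) at the 18504 tested regions, red for the 508 gained and blue for the 1472 lost in NKO, with circles around the 129 regions whose response differed between genotypes and the line of equal response. Circled regions lie mainly below the line.

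The difference between the responses was tested as an interaction in the same fit. It passed at 129 regions (0.697%), of which 124 had a lower and 5 a higher response in NKO. With TMM scaling it passed at 13 regions, 5 lower and 8 higher, so the direction of the count turns with the scaling. The median difference over all regions was -0.34 with library totals and 0.0048 with TMM. Leaving out single libraries gave between 7 (without WT Veh replicate 1) and 242 (without NKO Veh replicate 2) regions. The other counts were 58 and 47 without NKO KLA replicate 1 and 2, 27 without NKO Veh replicate 1, 237 and 26 without WT KLA replicate 1 and 2, and 10 without WT Veh replicate 2. Of the 508 regions gained in NKO the difference passed upward at 3 and downward at 1, and of the 1472 lost ones downward at 37. With TMM these counts were 5 upward at gained and 1 downward at lost regions.

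Passing under both scalings were 5 regions with a lower and 4 with a higher response in NKO. In an intron 5227 bp from Pldi, a non-coding RNA gene, WT held 121 and 129 tags per 10 M in Veh and 131 and 165 in KLA, while NKO held 209 and 180 in Veh and 77.0 and 66.7 in KLA. The log2 responses differed by -1.67 ± 0.24 (SE, adjusted p of 0.000142 in edgeR). At the region nearest Csf3, the gene of granulocyte colony-stimulating factor, WT rose from 15.1 and 15.8 to 67.3 and 75.8, and NKO held 50.1 and 45.9 in Veh and 32.9 and 26.4 in KLA (difference -2.88 ± 0.43, SE, edgeR adjusted p = 0.000152). NKO Veh was thus above WT Veh at both regions, and NKO KLA below WT KLA.

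A region 14550 bp from the Ehd1 TSS rose in WT from 34.0 and 34.1 to 172 and 186, and in NKO held 90.7 and 65 in Veh and 102 and 135 in KLA (difference -1.78 ± 0.29, SE, edgeR adjusted p = 0.000597). The upstream Ehd1 region, in contrast, had responses of 5.40 in WT and 5.17 in NKO (difference -0.23, edgeR adjusted p = 0.921). Zmynd8 and Tln2, a chromatin reader and a talin gene, completed the lower group with differences of -1.52 and -2.39. Without WT Veh replicate 1 neither passed (-1.35 and -2.15, both with an adjusted p of 0.0953), and Tln2 did not without NKO Veh replicate 1 (-2.07, adjusted p = 0.0554).

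The higher responses in NKO were at the Irf1 promoter, the Mir5131 region, an intron of Rassf4 and the Trim59 promoter. At Irf1, WT held 59.9 and 51.9 in Veh and 88.0 and 66.2 in KLA, against 51.6 and 42.9 and then 193 and 169 in NKO (difference 1.47 ± 0.29, SE, edgeR adjusted p = 0.00747). The Mir5131 difference was 1.21 and that at Rassf4 1.16. With the filterByExpr filter the Rassf4 difference did not pass (1.16, edgeR adjusted p = 0.0564). The Trim59 promoter fell in WT from 24.6 and 32.6 to 1.26 and 1.38 and held 15.5 and 11.6 against 12.7 and 4.86 in NKO (difference 3.80). In the DESeq2 Wald test its difference was 4.20 without an adjusted p, so it was not called there. Each of these 4 lost its call when any of several single libraries was left out, at adjusted p between 0.0511 (Trim59 without WT KLA replicate 1) and 0.323 (Mir5131 without WT Veh replicate 1). For Irf1 these were NKO KLA replicate 1 (0.0541), WT KLA replicate 2 (0.0568) and WT Veh replicate 1 (0.120) and 2 (0.0561). Of the genes with many lost regions, Irf2bp2 had a lower response in NKO at 3 of its 15 regions and Ubald1 at 1 of 4, and none of these passed with TMM.

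**Figure D4:**
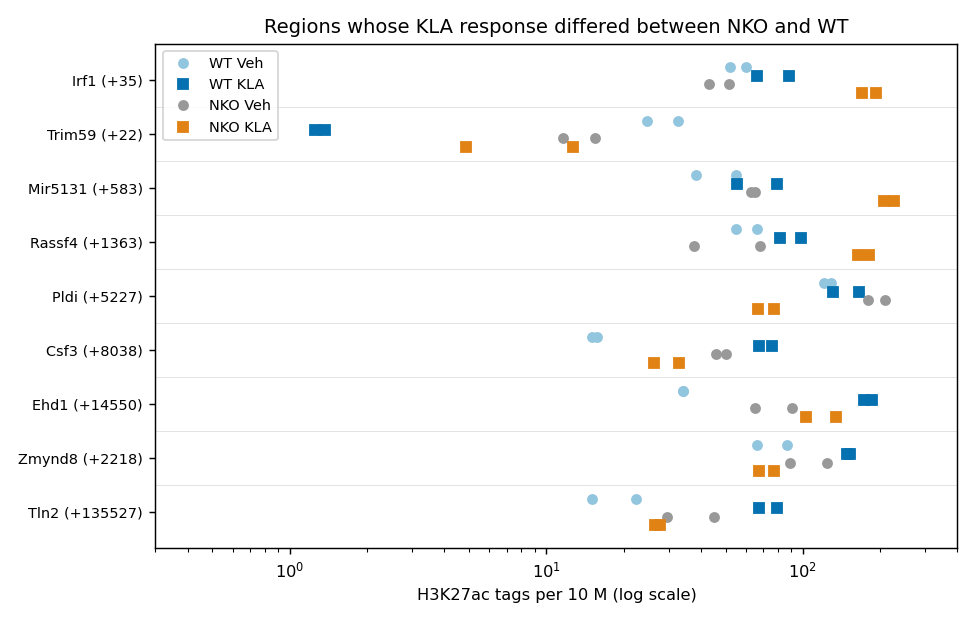
H3K27ac in tags per 10 M (log axis) in each of the 8 libraries at the 9 regions whose KLA response differed between NKO and WT under both scalings, circles for Veh and squares for KLA. At Csf3 the WT libraries rise from 15.1 and 15.8 to 67.3 and 75.8 while the NKO libraries hold 50.1 and 45.9 in Veh and 32.9 and 26.4 in KLA.

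Separate H3K27ac experiments gave the same contrast in other cells, with KLA for 6 h in WT BMDMs in DMSO and in PGC1b flox/flox BMDMs, 2 libraries a group. Their tables list open regions of unstimulated WT cells in 1000 bp windows, so regions that open with KLA can be absent. A region with its centre within 500 bp was found for 53.1% of the gained and 82.3% of the lost NKO regions, against 76.3% of all tested. In the DMSO experiment 6.73% of regions were gained and 28.1% lost over all its regions. Of its 14125 matched regions, 978 (6.92%) were gained and 2962 (20.97%) lost. Of the 270 matched regions gained in NKO, 169 (62.6%) were gained there and 0 lost, with a median log2 fold change of 1.32. Of the 1212 matched regions lost in NKO, 761 (62.8%) were lost and 2 gained, with a median of -1.27, against -0.24 over all 14125 matched regions. In the Pgc1b flox experiment 5.22% were gained and 25.6% lost over all its regions. Of its 14131 matched regions, 719 were gained and 2685 lost. There 141 of 270 matched regions gained in NKO were gained (52.2%), with a median of 1.03, and 704 of 1211 lost in NKO were lost (58.1%), with a median of -1.14. These signs were kept with TMM, at 1.75 and -0.85 in DMSO and at 1.46 and -0.71 in Pgc1b flox. In Pgc1b flox BMDMs that also carried Cre, 139 of 270 matched regions gained in NKO were gained (51.5%), with a median of 1.07. Of 1211 lost in NKO, 967 were lost (79.9%), with a median of -1.64. Of all 14131 matched regions there, 574 (4.06%) were gained and 4061 (28.7%) lost, so more matched regions were lost than in the Pgc1b flox experiment. With TMM these 2 medians were 1.69 and -1.02.

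Open chromatin was listed by condition, since each region carries the names of the ATAC-seq peak lists that hold it. The NKO Veh list held 32.1% and the NKO KLA list 57.7% of the regions in the table. Regions gained in NKO were in the NKO Veh list at 17.5% and in the NKO KLA list at 57.3%, and those lost at 31.7% and 52.7%, against 34.9% and 59.8% of all tested. In the KLA list without the Veh list were 43.9% of gained, 29.8% of lost and 31.6% of all regions. The WT lists gave 38.8% with Veh and 78.5% with KLA at gained regions, and 69.0% and 69.7% at lost regions, against 67.2% and 77.0% of all tested. These are shares of peak lists of unequal length, given without a test.

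Factor binding was measured in WT cells with and without KLA for 6 h, on other libraries, so it shows what binds at these positions when NCoR is present. An NCoR peak lay within 500 bp of 86.0% of gained regions (95% Clopper-Pearson interval 82.7 to 88.9, counting error alone), 83.6% of lost regions (81.6 to 85.4) and 74.7% of all tested. HDAC3 peaks gave 85.4%, 82.8% and 72.8%. Peaks of p65, the transactivating NF-kB subunit, lay near 86.2% of gained, 79.4% of lost and 71.6% of all regions. PU.1, the lineage-determining ETS factor, gave a different order, with 62.4% of gained (58.0 to 66.6), 80.6% of lost (78.5 to 82.6) and 67.8% of all. Fosl2, an AP-1 subunit, had peaks near 61.4% of gained, 70.2% of lost and 53.0% of all regions. The coactivator PGC1b gave 62.4%, 71.3% and 59.3%, and the kinase ERK1 61.4%, 64.5% and 55.4%.

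Medians of the change of binding with KLA were higher at regions gained in NKO than at regions lost. Median log2 fold changes of p65 were 2.24 at gained regions, 0.20 at lost regions and 0.51 at all tested regions with a peak. With TMM they were 1.02, -1.02 and -0.71, so the sign at lost regions depends on the scaling and the order does not. For p300, an acetyltransferase of H3K27, they were 1.48, -0.48 and -0.11 (TMM 0.96, -0.99 and -0.63). For NCoR itself they were 0.93 at gained, -0.69 at lost and -0.27 at all regions (TMM 0.91, -0.70 and -0.28), and for HDAC3 1.03, -0.49 and -0.063 (TMM 0.70, -0.76 and -0.34). Those of PU.1 were 0.17, -0.68 and -0.35 (TMM 0.58, -0.26 and 0.062). Fosl2 gave 1.42, -0.75 and -0.29, PGC1b 1.06, -0.28 and 0.024, and ERK1 0.99, -0.34 and 0.0053. With each factor library left out in turn the medians stayed above 0 at gained regions for all 8 factors and below 0 at lost regions for all but p65, whose median there stayed between 0.13 and 0.34.

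**Figure D5:**
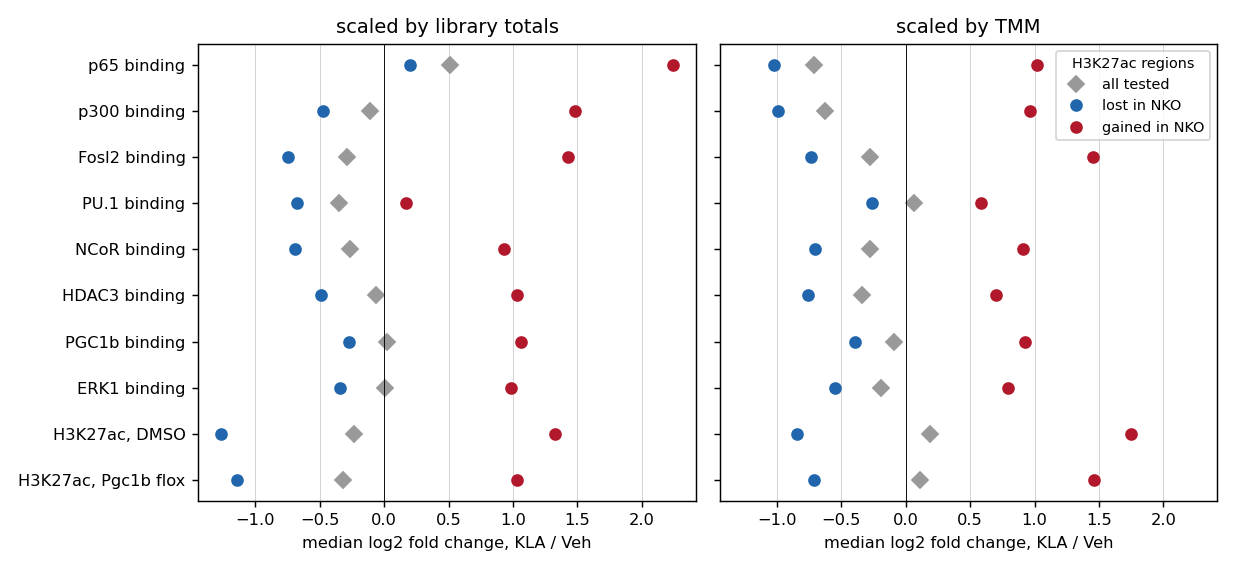
Median log2 fold change (KLA over Veh) of factor binding in WT cells and of H3K27ac in 2 separate experiments, near regions gained (red) or lost (blue) in NKO and near all tested regions (diamonds), scaled by library totals on the left and by TMM on the right. For each readout the gained regions lie above and the lost regions below all tested regions, with p65 at 2.24, 0.20 and 0.51 on the left.

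The Fosl2 median at lost regions moved most, to -0.28 without KLA replicate 1 and -1.45 without KLA replicate 2, and that of HDAC3 was -0.19 without KLA replicate 1.

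Single regions varied around these medians. At the upstream Ehd1 region, WT binding changed by 5.16 ± 0.40 (log2, SE) for NCoR, 5.00 ± 0.46 for HDAC3, 5.35 ± 0.30 for p300 and 5.76 ± 0.29 for p65, and PU.1 by 3.27 ± 0.16. At the Mir155hg region NCoR changed by 5.29 ± 0.35 and p65 by 7.03 ± 0.34. At Gas6 NCoR changed by -3.00 ± 0.40, p300 by -2.42 ± 0.34 and PU.1 by -2.42 ± 0.26, and H3K27ac in the DMSO experiment by -2.73 ± 0.24. At Dock1 the NCoR value was -2.74 ± 0.31 and that of PU.1 -2.11 ± 0.14. Gramd1a, whose H3K27ac was lost, had values of the opposite sign, with NCoR at 3.01 ± 0.31, HDAC3 at 2.90 ± 0.42, p300 at 2.92 ± 0.17 and p65 at 3.38 ± 0.23. Gadd45a was mixed, with NCoR at -2.33 ± 0.30, p300 at -0.40 ± 0.30 and p65 at 1.48 ± 0.30. At the Irf1 promoter p65 was at -0.88 ± 0.42, p300 at -0.82 ± 0.43 and HDAC3 at 2.16 ± 0.68, while H3K27ac rose in NKO.

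Motif letters in the 200 bp around region centres were counted on both strands, with the share of all 18390 tested regions on the reference chromosomes beside each. The kB motif was found in 10.5% of gained, 4.28% of lost and 4.62% of all regions, and among distal regions in 13.3%, 3.60% and 5.27%. The IRF motif (AAANNGAAA) was found in 10.5%, 4.76% and 5.54%, and among distal regions in 9.68%, 6.28% and 8.29%. The AP-1 motif (TGANTCA) had the reverse order, with 12.6% of gained, 23.9% of lost and 14.9% of all regions, and among distal regions 19.7%, 31.5% and 26.7%. PU.1 letters (GAGGAAGT) were in 6.31%, 9.92% and 7.53%, but among distal regions in 7.17%, 12.4% and 12.4%, where lost regions were no higher than all. Shares for C/EBP (TTGCNNAA) were 10.8%, 12.6% and 9.52%, for RUNX (TGTGGTT) 5.92%, 7.07% and 5.26%, and for the nuclear receptor half-site (AGGTCA) 13.4%, 12.3% and 11.0%. Among distal regions C/EBP was nearly even at 14.7%, 14.8% and 14.4%, as was RUNX at 8.96%, 9.17% and 8.62%. The half-site was there in 17.6%, 14.0% and 15.4%. The MiT/TFE E-box (TCACGTG) was in 1.38%, 3.33% and 3.58%. Median GC content was 53.0% in gained, 54.0% in lost and 57.5% in all windows. The orders for kB, IRF, AP-1 and PU.1 were kept in a 100 bp window, apart from PU.1 among distal regions. There 7.93% of lost and 7.62% of all distal regions held the PU.1 letters.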

How the data were processed

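ChIP-seq libraries of H3K27ac and of 8 factors were used from 11 tables of BMDMs, and 4 tables of other experiments were not used here. The study mapped reads to mm10 by Bowtie2, and per the file headers HOMER counted tags per region without normalization, with at most 3 tags per position. The authors deposited these as raw tag counts, with library totals in the headers. H3K27ac was counted over merged ATAC-seq peaks of both genotypes and treatments. Upstream versions are not given in the sources used here. The header of NKO KLA replicate 1 lacks the lane suffix of the other 7 columns.

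Counts were scaled by header totals and fitted with edgeR 4.0.16 in R 4.3.3 (quasi-likelihood F-test, two-sided, 1 fit over 8 libraries). The standard error was the size of the log2 fold change divided by the square root of F. Regions with 16 or more tags (factor peaks with 4 or more) in a library were tested. Calls needed a Benjamini-Hochberg adjusted p under 0.05 and a change over 2-fold. The fit was tested on simulated data. Groups came from sample titles. Replicates differed by more than counting noise (chi-square per region 1.95 to 2.98). Same-numbered libraries did not deviate together (6 correlations from -0.013 to 0.0021), and the main fit used no pairing. These correlations cannot show whether same-numbered libraries came from the same mice, which is not stated. p-values measure the spread between these samples.

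Named regions were the 12 gained and 12 lost with the lowest p (1 per nearest gene), each listed gene's strongest region (per list up to 3 called each way and 2 not called), the interaction calls held under both scalings, the genes with most called regions, and the study's loci. A nearest gene is the nearest TSS, not a target. The members and lists were chosen with earlier results of these data known. Regions on reference chromosomes (18390 of 18504) ended inside them in GRCm38. Sequences are from RefSeq GRCm38.p6, exons from GENCODE. Alternatives were TMM, DESeq2 1.42.0 (size factors and Wald test), other filters, distal regions, a replicate block, the NKO libraries alone, no fold minimum, other distances and windows, and each library left out. One gene of the lists is not reported here by name.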

Additional observations from a re-analysis of the deposited data

Results flagged for a closer look

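Responses that differed between NKO and WT, by the test of the difference itself, were seen at 129 regions with library totals. The 9 that also passed with TMM scaling differed, NKO minus WT on the log2 scale, by -1.67 at Pldi, -2.88 at Csf3, -1.78 at Ehd1 (14550 bp from the TSS), -1.52 at Zmynd8, -2.39 at Tln2, 1.47 at Irf1, 3.80 at Trim59, 1.21 at Mir5131 and 1.16 at Rassf4. At Csf3 the Veh libraries of the genotypes also stood apart, with 50.1 and 45.9 tags per 10 M in NKO against 15.1 and 15.8 in WT. Groups of 2 libraries were too small to look for single outlying samples.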

How the results depend on the processing

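The count of NKO calls (1980) stayed within 1.5 times under TMM, DESeq2 size factors, the Wald test, all 3 filters, the NKO libraries alone and no fold minimum, and was 1308 among distal regions and 1208 to 1726 with single libraries left out. Gained regions (508) became 775 with DESeq2 size factors, 794 with TMM, 287 in distal regions, 767 without the fold minimum and 329 to 440 with a library left out. Lost regions (1472) became 810 with the Wald test and 788 to 1286 with a library left out (918 without NKO KLA replicate 2, 788 without NKO Veh replicate 1). The median log2 fold change (-0.20) was -0.013 with DESeq2 size factors and the Wald test, -0.0031 with TMM, -0.36 in distal regions and -0.24 to -0.12 with a library left out. The numbers of WT calls were 1120 called, 682 gained and 438 lost in distal regions, 764 gained with the Wald test, 1913 gained without the fold minimum, and 1042 to 1848 called, 708 to 1237 gained and 325 to 611 lost with a library left out (gained 734 and 708 without WT Veh replicate 1 and 2). Differences between genotypes (129, of which 5 higher and 124 lower in NKO) became 13 with TMM and 13 with DESeq2 size factors (8 higher and 5 lower in each), 15 with the Wald test (8 and 7), 74 in distal regions (2 and 72), 213 without a filter (9 and 204), 3 higher with filterByExpr, and 7 to 242 with a library left out (0 to 12 higher, 7 to 231 lower). The cause of these changes was not tested. The distal fits also held fewer regions.

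In the KLA response of NKO cells, 0 of the 90 named regions were reversed and 7 lost their call with TMM. Under some alternative 13 lost it, mostly by falling just under 2-fold or with a library left out. Signs changed 35 times among values that passed under neither setting. List medians kept their sign under all alternatives in 8 of 13 lists. The exceptions were the NF-kB, chemokine, inflammatory enzyme, lineage factor and NCoR complex lists. The median of the NCoR complex could not be computed in distal regions, where none of its strongest regions lies.

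With replicate number as a block, 1896 regions were called in NKO (487 gained, 1409 lost) and 114 differed between genotypes, and of the named calls Egr3 (adjusted p 0.0192, under 2-fold) and Scd2 (-1.05) were lost. Whether same-numbered libraries were paired is not stated.

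Groups of 2 libraries and a median of 19.9 tags per 10 M in tested regions limit the precision. No detection limit by region strength was computed.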
